A study of Mus musculus with 27 samples.

Results

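The interferon signalling and response genes are 48 mouse genes chosen by name, covering the interferon receptors, the transcription factors behind them and a broad set of interferon-stimulated genes. A total of 47 of the 48 had a row among the 22524 genes counted, and Mx2 was not analysed here. By role, they were 6 receptor genes, 7 transcription factors, 3 RNA sensors, 15 antiviral effectors, 6 genes of ubiquitin, ISG15 and ADP-ribosylation, 7 interferon-inducible GTPases and 3 other interferon-induced genes.

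The RNA sequencing data comprised 27 libraries. Organoids, which are self-renewing epithelial cultures grown from crypts, were raised from the distal jejunum of 9 wild-type C57BL/6 mice, all adult males and littermates within a facility. The mice were 3 each from SR and SE, both specific pathogen-free (SPF), and from GF, which was germ-free, and each culture, numbered after its mouse (Z908 to Z910 for SR, Z911 to Z913 for SE and Z917 to Z919 for GF), gave 1 library labelled untreated and 1 labelled as treated with TNF (5 ng/mL, 8 hr). The m-ICc12 cells are a single immortalised line of mouse small intestinal epithelium and gave 3 libraries with each label, and untreated mouse embryonic fibroblasts (MEFs) gave 3. The labels name no interferon treatment.

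Interferons are secreted cytokines that act through pairs of receptor chains. Type I interferons bind Ifnar1 and Ifnar2, type II interferon (interferon gamma) binds Ifngr1 and Ifngr2, and type III interferons (interferon lambda) bind Ifnlr1 and Il10rb, a route known to be prominent in the intestinal epithelium. The receptors signal through STAT proteins and interferon regulatory factors (Irf), which bind short motifs near the start of interferon-stimulated genes, and TNF acts mainly through NF-κB, for which Irf1 is also a known target.

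The names of the deposited data and the sample labels give opposite treatments in all 12 pairs of organoid and m-ICc12 libraries. Groups follow the labels here, and every label difference is given as labelled untreated minus labelled TNF-treated. The NF-κB targets Nfkbia, Tnfaip3 and Nfkb2, which TNF is known to induce, went against the labels: Nfkbia lay between 149.6 and 225.5 CPM (counts scaled by library size) in the 9 organoid libraries labelled untreated and between 23.7 and 36.4 in those labelled TNF-treated. All 3 targets were also higher in the m-ICc12 libraries labelled untreated (log2 difference of Nfkbia 2.13 ± 0.23, SE). Libraries are therefore called by their label throughout, and every direction by label below carries this conflict. It also bears on the comparisons between culture types, which use the libraries labelled untreated. The MEFs have no second label, and their Nfkbia lay between 35.6 and 43.9 CPM. The totals per library on genes lay between 6071103 and 43843615 counts, and CPM values are scaled by the trimmed mean of M-values (TMM) over all libraries. The lowest total belonged to an m-ICc12 library labelled TNF-treated, M1.

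The organoids carried the markers of intestinal epithelium, with Epcam between 882.9 and 1106 CPM in the libraries labelled untreated and all 10 listed markers at a median of 10 CPM or more. In m-ICc12 cells 1 of these 10 markers (Vil1) reached a median of 10 CPM, Epcam lay between 2.06 and 7.14 CPM, and Vim, a fibroblast marker that many lines also express, lay between 1841 and 3002 CPM. Vim was the only 1 of the 8 listed fibroblast markers to reach that median in m-ICc12 cells under either label. Under the untreated label Col1a1 was at most 0.864 CPM there and Pdgfrb at most 0.0720 CPM. With the TNF label Col1a1 lay between 1.87 and 7.48 CPM there and Pdgfrb was at most 0.348 CPM. In organoids labelled untreated 1 of the 8 fibroblast markers, Pdgfrb, reached a median of 10 CPM (7.16 to 15.8 CPM, median 11.1). In organoids labelled TNF-treated 0 of the 8 did. The MEFs carried 5 of 8 fibroblast markers at that level. Of the 10 markers of immune cells none reached it in any group, and their summed level was 0 to 3.596 CPM in the organoid libraries labelled untreated and 0.128 to 4.78 CPM in those labelled TNF-treated.

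The promoters of the 4 genes that differed by label in organoids are printed because they show which interferon and NF-κB motifs stand next to those genes. They are RefSeq windows of 300 bases, in build GRCm38.p6, written 5′ to 3′ on the strand of the gene. Capitals mark the motifs searched on both strands: GAAANNGAAA, the core of the interferon-stimulated response element (ISRE), TTCNNNGAA, the palindromic gamma-activated site (GAS) bound by STAT dimers, and the NF-κB consensus.
Irf1 (chr11:53769764-53770063, + strand): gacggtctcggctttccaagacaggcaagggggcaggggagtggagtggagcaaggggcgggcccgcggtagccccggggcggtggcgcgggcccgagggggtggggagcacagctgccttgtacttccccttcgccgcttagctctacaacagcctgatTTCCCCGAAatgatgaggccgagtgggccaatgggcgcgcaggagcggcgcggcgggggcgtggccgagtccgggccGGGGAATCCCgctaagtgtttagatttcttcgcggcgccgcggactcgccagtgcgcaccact
Ifit3 (chr19:34583279-34583578, + strand): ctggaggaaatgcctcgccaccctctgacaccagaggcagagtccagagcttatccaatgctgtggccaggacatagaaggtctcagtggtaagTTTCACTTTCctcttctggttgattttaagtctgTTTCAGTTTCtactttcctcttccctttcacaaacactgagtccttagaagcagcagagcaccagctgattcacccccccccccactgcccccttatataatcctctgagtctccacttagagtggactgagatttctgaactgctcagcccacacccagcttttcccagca
Irf8 (chr8:120736108-120736407, + strand): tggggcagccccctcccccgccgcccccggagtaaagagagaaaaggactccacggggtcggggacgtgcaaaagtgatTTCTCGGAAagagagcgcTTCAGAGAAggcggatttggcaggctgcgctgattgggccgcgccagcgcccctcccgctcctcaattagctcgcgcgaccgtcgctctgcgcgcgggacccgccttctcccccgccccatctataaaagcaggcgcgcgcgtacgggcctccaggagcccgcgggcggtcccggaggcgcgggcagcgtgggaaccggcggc
Ifngr1 (chr10:19591699-19591998, + strand): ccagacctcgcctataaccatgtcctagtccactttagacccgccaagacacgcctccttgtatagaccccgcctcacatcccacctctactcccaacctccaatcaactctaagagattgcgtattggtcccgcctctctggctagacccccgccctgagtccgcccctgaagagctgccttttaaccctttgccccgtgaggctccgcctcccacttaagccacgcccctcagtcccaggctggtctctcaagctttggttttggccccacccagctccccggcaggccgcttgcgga
The Irf1 window held 1 GAS match, 90 bases before the start site, and 1 NF-κB match that reads on both strands, 13 bases before it, and these did not overlap. The Ifit3 window held 2 ISRE matches on the opposite strand, starting 156 and 122 bases before the start site. The Irf8 window held 2 GAS matches, starting 171 and 153 bases before it, and the Ifngr1 window held none of the 3 motifs. RefSeq windows were found for 38 of the 47 genes, 45 windows in all. ISRE matches were in 17 of these 45 windows (37.8%), against 3.44% of all 32851 windows, and stood in 5 of 6 windows of the GTPases, 7 of 16 of the antiviral effectors and 0 of 5 of the receptors. GAS matches were in 14 of 45 (31.1% against 8.30%) and NF-κB matches in 5 of 45 (11.1% against 4.51%). A match describes letters in a window and is not a measured binding site.

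The organoids transcribed most receptors, transcription factors and a few effectors at moderate levels and many classical interferon-stimulated genes at very low levels. Across the 18 organoid libraries, 24 of the 47 genes had a median of 10 CPM or more, 6 lay between 1 and 10 CPM and 17 lay under 1 CPM. In m-ICc12 cells these counts were 20, 8 and 19, and in MEFs they were 21, 11 and 15. Isg15, the ubiquitin-like modifier, lay at 0 to 1.71 CPM in organoid libraries labelled untreated, and Usp18, its deconjugating enzyme, at 0 to 1.87 CPM. Gbp2, Gbp3, Gbp6, Gbp7 and Iigp1, all GTPases that act on intracellular microbes, had a median of 0 CPM in organoids under both labels. By contrast the effectors Adar (an RNA-editing enzyme), Eif2ak2 (the kinase PKR) and Samhd1 (a dNTP hydrolase) lay at medians of 55.4, 43.8 and 38.2 CPM in the libraries labelled untreated, with a highest value at most 2.12 times the lowest.

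**Figure D1:**
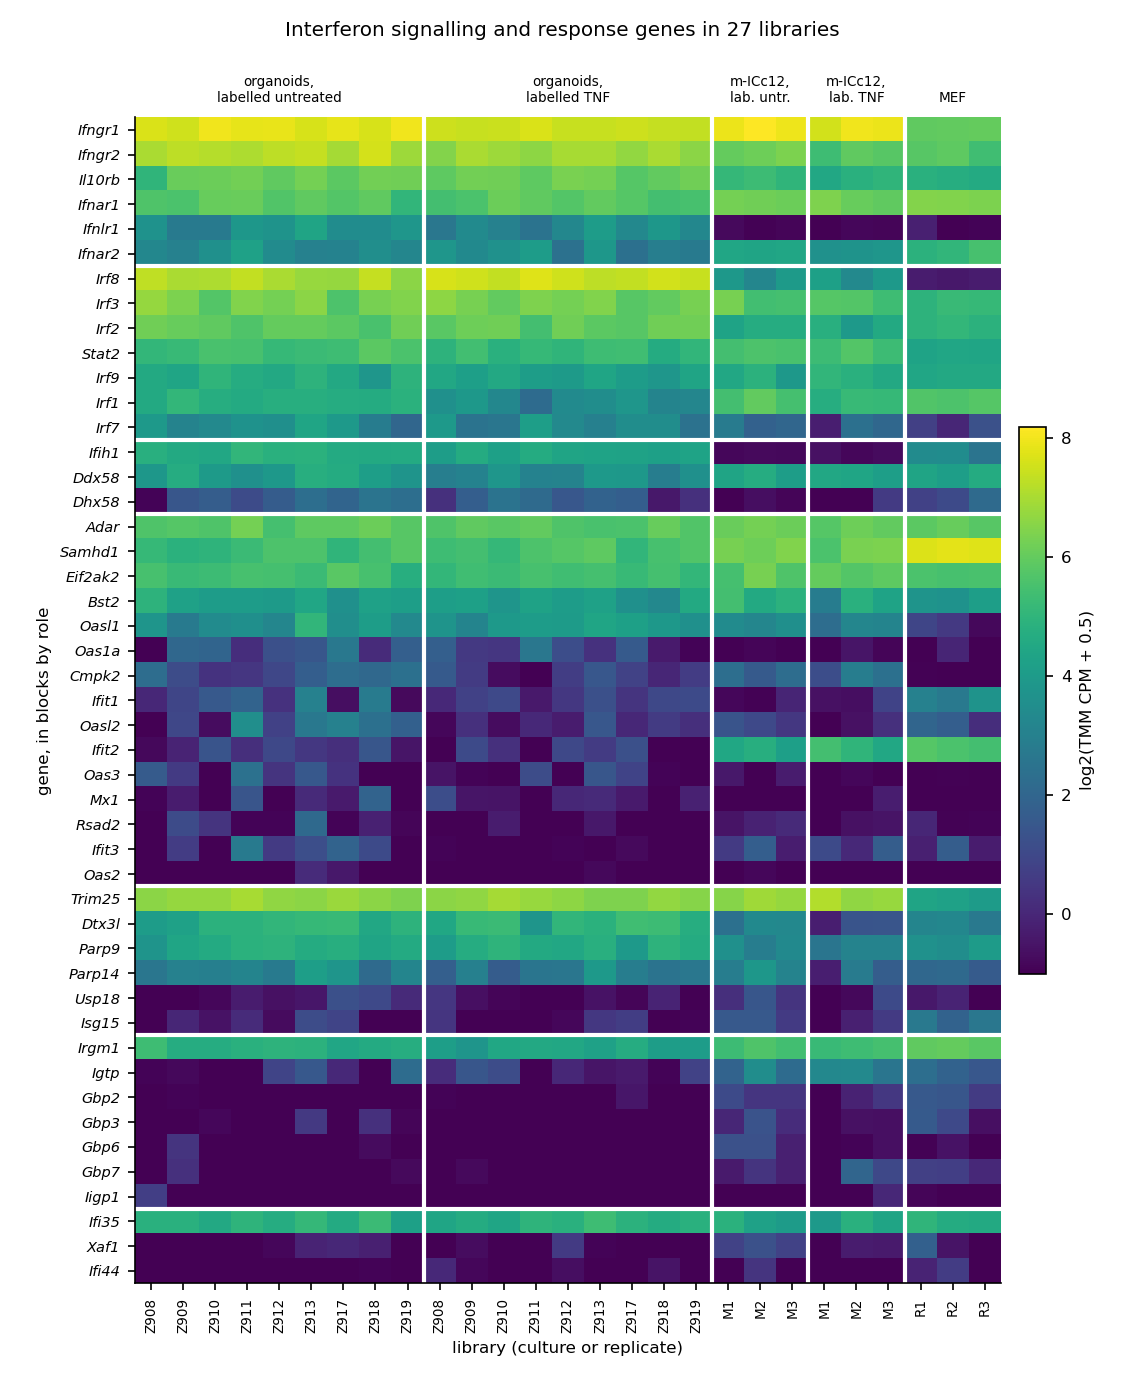
Heat map of log2(TMM CPM + 0.5) for the 47 genes (rows, in blocks by role, ordered by organoid median within each block) in 27 libraries (columns, grouped by culture type and label, named by culture or replicate). The receptor and transcription factor blocks are mostly bright in all columns except Ifnlr1, Irf7 and Irf8, and most Oas, Ifit, Mx and Gbp genes are dark in the organoid columns.

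The receptor genes showed which interferon chains each culture type transcribed. Ifngr1 was the most abundant of the 6 per kilobase of exon in organoids labelled untreated (77.7 CPM per kb, mean of 9), followed by Ifngr2 (38.8), Il10rb (17.1), Ifnar1 (9.19), Ifnar2 (3.11) and Ifnlr1 (2.84). In MEFs the order began with Ifngr1 (22.1), Ifnar1 (14.6), Ifngr2 (13.8) and Ifnar2 (10.7), and Ifnlr1 was the lowest at 0.03 CPM per kb. The receptor genes Ifnar2, Il10rb, Ifnar1 and Ifngr2 are neighbours on the + strand of chromosome 16 between 91372783 and 91565623 (GRCm38), with 574 bases between Ifnar2 and Il10rb. Their levels moved in different directions between culture types, as given below.

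**Figure D2:**
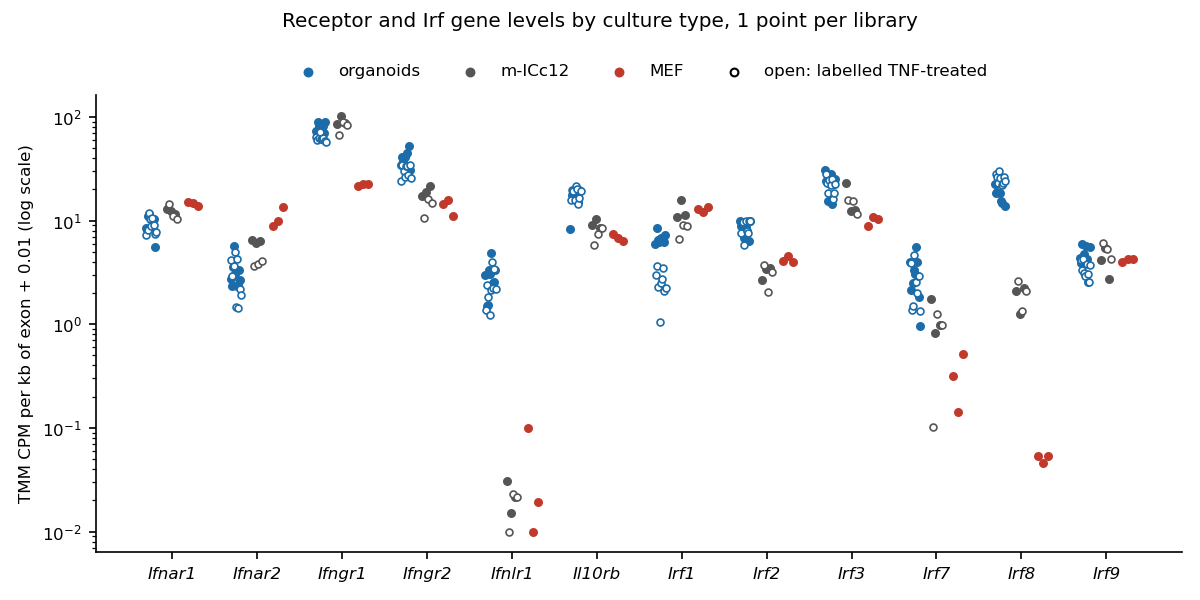
TMM CPM per kilobase of exon (log scale, 0.01 added) of the 6 receptor genes and 6 Irf genes, 1 point per library, by culture type; open points are libraries labelled TNF-treated. Ifnlr1 and Irf8 stand far apart between organoids and the other 2 culture types, while Irf9 overlaps in all 3.

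The 9 organoid cultures were compared with the 3 m-ICc12 replicates in the libraries labelled untreated. In organoids 3 of 6 receptor genes were higher (Ifnlr1, Il10rb and Ifngr2) and 1 lower (Ifnar2). Transcription factors were higher for 3 of 7 (Irf2, Irf7 and Irf8) and lower for 1 (Irf1). RNA sensors were higher for 2 of 3 (Ifih1 and Dhx58). Antiviral effectors were higher for 2 and lower for 3 of 13 tested. GTPases were lower for 3 of the 6 tested (Gbp2, Gbp6 and Irgm1) and higher for 0. Of 43 genes tested, 12 were higher and 9 lower (edgeR, adjusted p under 0.05). Over all 12962 genes tested, 31.6% were called higher in organoids and 29.3% lower, and 48.8% of these 43 were called in either direction. Their median log2 difference was -0.10, beside 0.03 over all genes. With the libraries labelled TNF-treated in place of those labelled untreated, 15 of the 21 were called again in the same direction and 0 in the opposite one. With each culture or replicate left out in turn as well, 13 of the 21 kept their call in every fit: Irf2, Irf8, Ifih1, Oas1a, Parp9, Dtx3l, Ifnlr1, Il10rb and Ifngr2 (higher), and Irf1, Ifit2, Gbp2 and Samhd1 (lower).

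Ifnlr1, the lambda-specific receptor chain, lay between 6.24 and 20.4 CPM (median 12.5) in organoids labelled untreated. In m-ICc12 cells labelled untreated it lay at 0.0876, 0.0218 and 0.0480 CPM, and it was at or under 3 counts in all 6 m-ICc12 libraries. Organoids thus exceeded m-ICc12 cells by 242-fold in pooled rate (2854 against 6 counts, 95% counting interval 111.1 to 660; log2 difference 7.78 ± 0.70, edgeR adjusted p = 5.47e-08). Its partner Il10rb was higher as well (0.91 ± 0.21, adjusted p = 0.00161 in edgeR), as was Ifngr2 (1.03 ± 0.15, edgeR adjusted p = 2.37e-05). Ifnar2 was lower in organoids (-0.99 ± 0.30, edgeR adjusted p = 0.00850), but with the libraries labelled TNF-treated its log2 difference was -0.38 and the call was lost. For Ifngr1 and Ifnar1 the log2 differences were -0.22 and -0.39, with edgeR adjusted p of 0.108 and 0.0610.

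Ifih1 (MDA5, a sensor of long double-stranded RNA) showed one of the widest contrasts. It lay between 22.2 and 33.0 CPM in organoids labelled untreated and at 0.0584, 0.0873 and 0.0720 CPM in m-ICc12 cells, a pooled ratio of 353.2 (6248 against 9 counts, 95% counting interval 185.9 to 772.8; edgeR adjusted p = 6.69e-12). The other cytosolic helicase sensor, Ddx58 (RIG-I), lay between 11.6 and 26.3 CPM in organoids and at 20.1, 25.6 and 16.7 CPM in m-ICc12 cells, so that the groups overlapped (log2 difference -0.19 ± 0.29). Dhx58 (LGP2, their regulator) lay between 0.0373 and 5.37 CPM in organoids, where Z908 alone was under 1 CPM, and at 0, 0.131 and 0.0480 CPM in m-ICc12 cells (log2 difference 5.54 ± 1.39, edgeR adjusted p = 0.00245). That call was lost with the libraries labelled TNF-treated (2.80), and the log2 difference was 6.71 without M2 and 4.19 with both libraries of a culture summed.

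Irf8, a factor best known from myeloid and B cells, lay between 97.1 and 166 CPM (median 131) in organoids labelled untreated and at 14.6, 8.71 and 15.7 CPM in m-ICc12 cells. The difference was 3.38 ± 0.24 on the log2 scale (edgeR adjusted p = 2.61e-09). In these organoid libraries the pan-leukocyte marker Ptprc lay between 0 and 0.0397 CPM, and Cd3e and Adgre1 were at 0. Of the other listed immune markers, Cd68 reached 3.596 CPM (median 0.688) and Coro1a 1.405 CPM (median 0). Which cells gave the Irf8 reads was not tested. Irf2, an antagonist of Irf1, was higher in organoids (1.41 ± 0.17, edgeR adjusted p = 2.35e-06), and Irf7, an amplifier of type I interferon, was higher by 1.38 ± 0.50 (edgeR adjusted p = 0.0250). The Irf7 call was lost without m-ICc12 replicate M2 (1.18) or M3 (1.26). Irf1 was lower in organoids (-0.89 ± 0.16, edgeR adjusted p = 0.000135), and lower still between the libraries labelled TNF-treated (-1.68). Of the remaining calls, Parp9, an ADP-ribosyltransferase-family protein, and its partner Dtx3l were higher in organoids (1.33 ± 0.28 and 1.83 ± 0.31), and Bst2 (-0.78 ± 0.25), Irgm1 (-0.65 ± 0.18) and Samhd1 (-0.96 ± 0.18) were lower. For Dtx3l the log2 difference was 4.13 with the libraries labelled TNF-treated. The Bst2 call was lost without M1 (-0.49) or with the libraries labelled TNF-treated (-0.17), and the Irgm1 call without M2 (-0.52). For Irf3 and Irf9 the log2 differences were 0.56 ± 0.24 and 0.17 ± 0.26, with edgeR adjusted p of 0.0511 and 0.592.

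Among effectors, Ifit2, which binds viral RNA, ran the other way. It lay between 0.0745 and 2.27 CPM in organoids labelled untreated and at 21.9, 26.4 and 17.8 CPM in m-ICc12 cells (log2 difference -4.46 ± 0.65, edgeR adjusted p = 1.73e-05; -5.41 with the libraries labelled TNF-treated). Ifit1, which lies near it on chromosome 19, was called higher in organoids (3.82 ± 1.53, edgeR adjusted p = 0.0401), on 0.0888 to 7.73 CPM against 0.0584, 0.0218 and 0.456 CPM. The Ifit1 call was lost without any 1 of Z910, Z911, Z913, Z918, M1 or M2, and with the libraries labelled TNF-treated (1.02), and the log2 difference was 5.90 without M3 and 2.67 with both libraries of a culture summed. Oas1a, which makes the 2-5A messenger that activates RNase L, lay between 0 and 5.91 CPM in organoids and at 0, 0.0437 and 0 CPM in m-ICc12 cells. Its pooled ratio was 144.2 with 567 against 2 counts (95% counting interval 39.8 to 1194; log2 difference 6.92 ± 1.78, edgeR adjusted p = 0.00294). The log2 difference was 9.09 without M2, which held both counts, 3.95 with the libraries labelled TNF-treated and 5.23 with both libraries of a culture summed.

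The GTPases Gbp2 and Gbp6, and Xaf1, were at or near 0 in organoids, whereas Irgm1 lay between 21.0 and 39.6 CPM. Gbp2 gave 1 count in the 9 organoid libraries labelled untreated, against 1.58, 0.851 and 0.840 CPM in m-ICc12 cells, a pooled ratio of 251.6 (95% counting interval 44.4 to 10010; log2 difference -7.03 ± 1.08, edgeR adjusted p = 3e-05). The log2 difference was -8.03 without Z909 and -3.92 with the libraries labelled TNF-treated. Gbp6 lay at 0 CPM in 7 of 9 organoid libraries and at 1.90, 1.94 and 0.384 CPM in m-ICc12 cells (-3.73 ± 1.46, edgeR adjusted p = 0.0364). Its call was lost without any 1 of Z910, Z912, Z913, Z917, Z918, Z919, M1 or M2, whereas without Z909, the organoid library with most of its counts, the log2 difference was -6.31, and it was -5.71 by DESeq2. Xaf1 lay between 0 and 0.508 CPM in organoids and at 1.26, 1.90 and 1.25 CPM in m-ICc12 cells (-3.19 ± 1.30, edgeR adjusted p = 0.0428), and its call was lost in 8 of 12 fits that left out 1 culture or replicate and by DESeq2 (-3.27). The interferon-inducible Mx1, a dynamin-like antiviral GTPase, was at 0 counts in the 3 m-ICc12 libraries labelled untreated. Against 3 counts per library its organoid mean of 0.747 CPM was at least 9.96-fold higher, although 2 of the 9 organoid libraries, Z911 (2.20 CPM) and Z918 (3.34 CPM), held most of it. The bound was 5.65-fold without Z918 and 7.54-fold without Z911. For the mean of the organoid libraries labelled TNF-treated it was 5.82-fold, against the same m-ICc12 libraries labelled untreated. Against the m-ICc12 libraries labelled TNF-treated there is no such bound, because M3 held 7 counts of Mx1 (0.336 CPM). Mx1 did not pass the count filter and was not tested against m-ICc12 cells or MEFs.

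Against the MEFs, organoids were higher in 18 and lower in 9 of 41 genes tested. The background over 13144 genes was 34.6% called higher and 32.6% lower, and the median log2 difference was 0.55 for these genes and 0.03 for all genes. With the organoid libraries labelled TNF-treated, 23 of the 27 were called again in the same direction, and 22 of them also with each library left out in turn (15 higher, 7 lower). Of the transcription factors 5 of 7 were higher and 1 lower, and of the GTPases tested 2 of 5 were lower and 0 higher. The comparison shares its organoid libraries with the one against m-ICc12 cells, so the 2 sets of calls are not independent. By the names of the deposited data, the organoid libraries labelled untreated were treated with TNF, and so were the m-ICc12 libraries compared with MEFs below. Under those names the comparisons with MEFs differ in treatment as well as in culture type. The fits with the libraries labelled TNF-treated give the other assignment.

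Irf8 gave the widest log2 difference here, with 97.1 to 166 CPM in organoids labelled untreated against 0.309, 0.251 and 0.306 CPM in MEFs (8.85 ± 0.29, edgeR adjusted p = 1.93e-13). Irf7 lay between 3.55 and 20.8 CPM in organoids and at 1.16, 0.502 and 1.91 CPM in MEFs (3.28 ± 0.61, edgeR adjusted p = 0.000170). Irf3 (1.22 ± 0.21), Irf2 (1.01 ± 0.16) and Stat2 (1.07 ± 0.19) were higher too, with edgeR adjusted p of 0.000100, 3.21e-05 and 9.81e-05. Irf1 was lower (-0.93 ± 0.14, edgeR adjusted p = 2.42e-05; -2.33 with the libraries labelled TNF-treated), and Irf9 did not differ by the test (0.15 ± 0.23, edgeR adjusted p = 0.575).

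The receptor chains split by interferon type. The 2 type I chains were lower in organoids than in MEFs, Ifnar1 by -0.65 ± 0.17 and Ifnar2 by -1.77 ± 0.27 on the log2 scale (edgeR adjusted p = 0.00304 and 2.43e-05). The 2 gamma chains were higher, Ifngr1 by 1.83 ± 0.12 and Ifngr2 by 1.51 ± 0.17 (edgeR adjusted p = 1.05e-09 and 7.05e-07). Of the lambda chains, Il10rb was higher by 1.34 ± 0.22, and Ifnlr1 had 17 counts in the 3 MEF libraries (0.380, 0 and 0.0382 CPM) against 2854 in 9 organoid libraries. The pooled Ifnlr1 ratio was 75.9 (95% counting interval 47.3 to 130.4; log2 difference 6.32 ± 0.90, edgeR adjusted p = 1.19e-05), and without R1, which held most of the MEF counts, the log2 difference was 9.21.

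The effectors were divided. Cmpk2, a mitochondrial nucleotide kinase, gave 1 count in the 3 MEF libraries and 0.756 to 4.75 CPM in organoids labelled untreated, a pooled ratio of 306 (95% counting interval 54.7 to 12100; edgeR adjusted p = 6.92e-05). Its log2 difference was 7.73 ± 1.30, or 9.27 without R1 and 6.41 with the libraries labelled TNF-treated. Oasl1 lay between 6.27 and 32.8 CPM in organoids and at 1.40, 0.953 and 0.0764 CPM in MEFs (4.03 ± 0.74, edgeR adjusted p = 0.000158), and without R1 the log2 difference was 4.66. Oas3 gave 1 count in MEFs and 0 to 4.82 CPM in organoids, with 3 of 9 organoid libraries at 0 (6.72 ± 2.31, edgeR adjusted p = 0.0174). The Oas3 call was lost without R1 (6.25) or R3 (6.37), and the log2 difference without R2 was 8.28. Oas1a was called higher (3.85 ± 1.65, edgeR adjusted p = 0.0493), but that call was lost in 8 of 12 fits that left out 1 library and with the libraries labelled TNF-treated (3.40), and the log2 difference was 9.05 without R2.

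On the lower side, Ifit2 lay at 54.2, 47.6 and 42.9 CPM in MEFs against 0.0745 to 2.27 CPM in organoids (-5.60 ± 0.58, edgeR adjusted p = 3.38e-07). Gbp2 lay at 2.49, 2.26 and 1.03 CPM in MEFs against 1 count in the organoid libraries labelled untreated, a pooled ratio of 491.2 (95% counting interval 87.2 to 19490; log2 difference -7.83 ± 1.01, edgeR adjusted p = 4.07e-06). The log2 difference was -8.80 without Z909 and -5.96 with the libraries labelled TNF-treated. Isg15 lay at 6.01, 3.19 and 5.81 CPM in MEFs and at 0 to 1.71 CPM in organoids (-3.33 ± 1.18, edgeR adjusted p = 0.0206), a call lost without R1 (-3.17) or R3 (-3.23), and the log2 difference was -3.93 with the libraries labelled TNF-treated. Ifi44 had 61 counts in MEFs and 1 in organoids labelled untreated (-5.91 ± 1.23, edgeR adjusted p = 0.000513), with no call by DESeq2 (-5.89) or for the libraries labelled TNF-treated (-2.18). It was -6.87 without Z918, -4.76 without R2 and -6.52 without R3. Samhd1 was also lower in organoids, at 207, 222 and 212 CPM in MEFs against 29.1 to 54.8 CPM (-2.40 ± 0.16, edgeR adjusted p = 1.50e-09).

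In m-ICc12 cells against MEFs, 12 of 41 genes tested were higher and 7 lower, on a background of 28.1% and 31.2% of 12830 genes. With the m-ICc12 libraries labelled TNF-treated, 12 of the 19 were called again in the same direction, and 10 of these also with each library left out in turn. Cmpk2 lay at 4.50, 2.55 and 4.41 CPM in m-ICc12 cells labelled untreated against 1 count in MEFs (8.24 ± 1.13, edgeR adjusted p = 4.12e-05; 10.17 without R1). Irf8 was higher by 5.43 ± 0.49 (edgeR adjusted p = 7.47e-07), Oasl1 by 3.58 ± 0.69 (edgeR adjusted p = 0.000667; 4.25 without R1) and Trim25, the ubiquitin ligase that activates RIG-I, by 2.48 ± 0.17 (edgeR adjusted p = 5.36e-08). Trim25 lay at 90.8, 117 and 106 CPM in m-ICc12 cells and at 19.9, 18.5 and 15.9 CPM in MEFs, and organoids exceeded MEFs by 2.52 ± 0.15 as well (edgeR adjusted p = 2.89e-10).

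Ifih1 lay at 10.3, 10.7 and 5.27 CPM in MEFs, so that m-ICc12 cells were the lowest of the 3 culture types (-6.88 ± 0.64, edgeR adjusted p = 1.15e-06). Ifit1 lay at 7.72, 5.997 and 12.6 CPM in MEFs against 22 counts in the m-ICc12 libraries labelled untreated (-5.63 ± 0.87, edgeR adjusted p = 0.000120; -7.79 without M3 and -3.93 with the libraries labelled TNF-treated). Dhx58 was lower in m-ICc12 cells as well (-5.17 ± 1.19, edgeR adjusted p = 0.00231), at 1.21, 1.61 and 4.01 CPM in MEFs, but not by the test with the libraries labelled TNF-treated (-2.68). Its log2 difference was -6.35 without M2 and -4.46 without R3. Gbp6 was higher in m-ICc12 cells (4.23 ± 1.32, edgeR adjusted p = 0.0145), a call lost without M1 (3.98), M2 (3.93) or R1 (3.87), with 6.37 without R2. Of the receptors, Ifngr1 was higher (2.01 ± 0.14) and Ifnar2 lower (-0.82 ± 0.21, or -1.48 with the libraries labelled TNF-treated), with edgeR adjusted p of 4.99e-08 and 0.00460. Ifngr2 was called higher by 0.44 ± 0.17 (edgeR adjusted p = 0.0393), but the call was lost without M2, M3, R1 or R3, and the log2 difference between libraries labelled TNF-treated and MEFs was 0.01. For Ifnar1 and Il10rb the log2 differences were -0.30 and 0.39 (edgeR adjusted p = 0.0682 and 0.0778), and Ifnlr1 was not tested. Of the other Irf genes, Irf3 (0.62 ± 0.23, edgeR adjusted p = 0.0307) and Irf7 (1.85 ± 0.68, edgeR adjusted p = 0.0334) were called higher, but Irf3 lost its call without M1, R1 or R3 and Irf7 without M1, M3, R1 or R2. For Irf1, Irf2 and Irf9 the log2 differences were -0.07, -0.44 and -0.06, with edgeR adjusted p of 0.740, 0.0696 and 0.844.

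The values of Oas1a without M2 or R2, Oas3 without R2, Cmpk2 without R1, Gbp2 without Z909 and Ifi44 without Z918 were fitted against a group left with 0 counts, so that they depend on the prior count and are no bounds. Some genes were at or under 3 counts in every library of a culture type. In m-ICc12 cells these were Oas2 and Ifnlr1, and in MEFs they were Oas2, Oas3, Mx1, Iigp1 and Cmpk2, of which Mx1 and Oas2 gave 0 counts. In organoids no gene was at or under 3 counts in all 18 libraries. The organoid mean of Mx1 was at least 8.59-fold higher than 3 counts per MEF library, a bound of 4.87-fold without Z918 and of 5.02-fold for the organoid libraries labelled TNF-treated.

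Between the organoid libraries of the 2 labels, 4 of 35 genes tested were called. Irf1, Ifit3 and Ifngr1 were higher in the libraries labelled untreated and Irf8 was lower. Over 12104 genes, 1.26% were called higher in the libraries labelled untreated and 0.124% lower, beside 3 of 35 and 1 of 35 here. The log2 difference was above 0 for 28 of the 35 genes and below 0 for 7, with a median of 0.31 against 0.00031 for all genes. At an unadjusted edgeR p under 0.05 there were 11 of the 35 genes, 10 of them higher in the libraries labelled untreated. Over all 12104 genes there were 1072 at that p. By label the direction is the opposite of what the data names give, as it is for Nfkbia.

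Irf1, the factor that interferon gamma and NF-κB both induce, lay between 23.7 and 33.4 CPM (median 25.7) in the organoid libraries labelled untreated and between 4.15 and 14.5 CPM (median 9.93) in those labelled TNF-treated. The groups did not overlap, and the library labelled untreated was the higher one in 9 of 9 cultures. The log2 difference was 1.39 ± 0.18, a 2.62-fold difference (edgeR adjusted p = 1.10e-05). In m-ICc12 cells Irf1 lay at 43.2, 62.7 and 44.6 CPM under the untreated label and at 26.3, 36.3 and 35.1 CPM under the TNF label, again without overlap, but the difference of 0.60 ± 0.22 did not pass the threshold (edgeR adjusted p = 0.953). The difference between these 2 label differences, -0.77 ± 0.33, did not pass it either (edgeR adjusted p = 0.670). Among the promoters printed above, that of Irf1 is the one with both a GAS and an NF-κB match. The windows of Irf2 and Bst2, which were not called by label, also hold both. Whether the motifs bear on the label difference was not tested.

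Ifit3, an antiviral effector that works with Ifit1, was close to absent under the TNF label. The 9 organoid libraries labelled TNF-treated gave 4 counts in all (0 to 0.0946 CPM), and those labelled untreated gave 427. Under the untreated label Ifit3 was at 0 in 3 cultures (Z908, Z910 and Z919), at 1.06 CPM in Z909, 6.46 in Z911, 0.983 in Z912, 1.78 in Z913, 3.27 in Z917 and 1.60 in Z918. The pooled ratio was 111.6 (95% counting interval 43.3 to 411.4, which covers counting error only), and the fitted log2 difference was 6.33 ± 1.26 (edgeR adjusted p = 0.00441). Culture Z911 held the highest value, and without it the log2 difference was 5.63 (edgeR adjusted p = 0.0299). With the culture as a block it was 5.59. Ifit3 has a near-identical neighbour, Ifit3b, so that reads could be split between them, and the same holds for the Gbp and Oas families. In m-ICc12 cells Ifit3 lay at 0.964, 2.81 and 0.336 CPM and at 1.57, 0.536 and 2.78 CPM under the 2 labels, which overlapped.

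Ifngr1, the ligand-binding chain for interferon gamma, differed by less. It lay between 185 and 255 CPM (median 231) under the untreated label and between 163 and 203 CPM (median 172) under the TNF label. The ranges overlapped, but the library labelled untreated was the higher one in 9 of 9 cultures (log2 difference 0.34 ± 0.07, edgeR adjusted p = 0.00749). Its partner Ifngr2 was also the higher one in 9 of 9 cultures, with 115 to 196 CPM against 89.7 to 128 CPM, and stood at the threshold (0.38 ± 0.10, edgeR adjusted p = 0.0506). With the culture as a block Ifngr2 was called (0.37, edgeR adjusted p = 0.000178). For the other receptor genes the log2 differences were small against their error, from -0.06 ± 0.13 (Il10rb) through 0.04 ± 0.13 (Ifnar1) and 0.07 ± 0.26 (Ifnar2) to 0.31 ± 0.25 (Ifnlr1).

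Irf8 was the only gene of the 35 tested called lower in the organoid libraries labelled untreated. It lay between 97.1 and 166 CPM (median 131) there and between 156 and 212 CPM (median 183) under the TNF label, and it was lower under the untreated label in 9 of 9 cultures although the ranges overlapped slightly. The log2 difference was -0.43 ± 0.10 (edgeR adjusted p = 0.0168), and it lost its call without Z909 (-0.42, edgeR adjusted p = 0.0637) or Z912 (-0.42, edgeR adjusted p = 0.0590). The Irf8 level was far lower in m-ICc12 cells, where the label difference was -0.12 ± 0.36. The remaining Irf genes gave 0.42 ± 0.16 (Irf9), 0.25 ± 0.30 (Irf7), 0.07 ± 0.13 (Irf3) and -0.05 ± 0.11 (Irf2) in organoids, and none was called, although Irf9 was higher under the untreated label in 9 of 9 cultures.

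**Figure D3:**
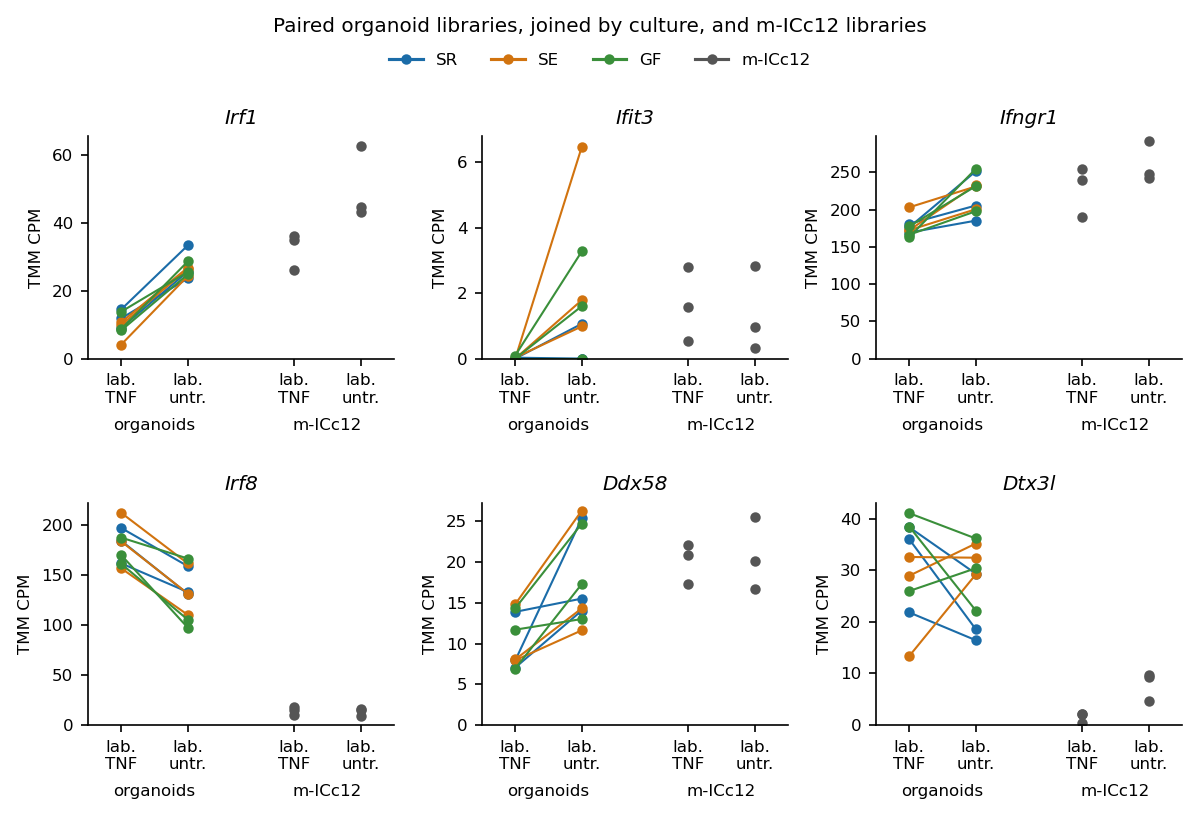
TMM CPM of 6 genes in each library by label (lab. TNF, labelled TNF-treated; lab. untr., labelled untreated); lines join the 2 organoid libraries of a culture, coloured by facility, and m-ICc12 libraries are unjoined grey points. Irf1, Ifngr1 and Ddx58 rise from left to right in all 9 organoid cultures, Irf8 falls in all 9, and Dtx3l separates by label in m-ICc12 cells but not in organoids.

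Beyond these, 0 of the 3 RNA sensors were called. Ddx58 lay between 11.6 and 26.3 CPM under the untreated label and between 6.92 and 14.8 CPM under the TNF label and was higher under the untreated label in 9 of 9 cultures (0.81 ± 0.22, edgeR adjusted p = 0.0598). With the culture as a block it was called (0.82, edgeR adjusted p = 0.00961). Ifih1 (0.38 ± 0.13) was higher in 8 of 9 cultures, with an edgeR adjusted p of 0.222. Dhx58 (0.31 ± 0.60) was higher in 5 and lower in 4 of 9 cultures. Irgm1, a GTPase of the autophagy machinery, was higher in 8 of 9 cultures (0.52 ± 0.15, edgeR adjusted p = 0.0901), and without Z917 it was called (0.61, edgeR adjusted p = 0.0344). Oasl2 had 0 to 11.01 CPM against 0.0570 to 2.29 CPM (2.49 ± 0.82, edgeR adjusted p = 0.211). By DESeq2, 8 genes were called, the 4 above with Ddx58, Oasl2, Irgm1 and Ifngr2, while the share called over all genes was 1.80% by DESeq2 and 1.39% by edgeR.

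Of 79 other genes of the pathway, listed beside these 47, 48 were tested in organoids, 3 were called higher under the untreated label and 0 lower, beside 1.26% and 0.124% of all genes. They were Ikbke, a kinase upstream of Irf3 (1.01 ± 0.11, edgeR adjusted p = 9.53e-07), Lgals9 (0.56 ± 0.08, edgeR adjusted p = 7.30e-05) and Rnf213 (0.50 ± 0.09, edgeR adjusted p = 0.00230). In m-ICc12 cells 0 of 49 were called by edgeR, and 3 had an unadjusted p under 0.05, beside 556 of all 11861 genes. Between culture types, 15 were higher and 21 lower of 55 tested (organoids against m-ICc12), 15 and 16 of 58 (organoids against MEFs) and 23 and 16 of 58 (m-ICc12 against MEFs). The shares over all genes in these 3 comparisons were 31.6% and 29.3%, 34.6% and 32.6%, and 28.1% and 31.2%.

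**Figure D4:**
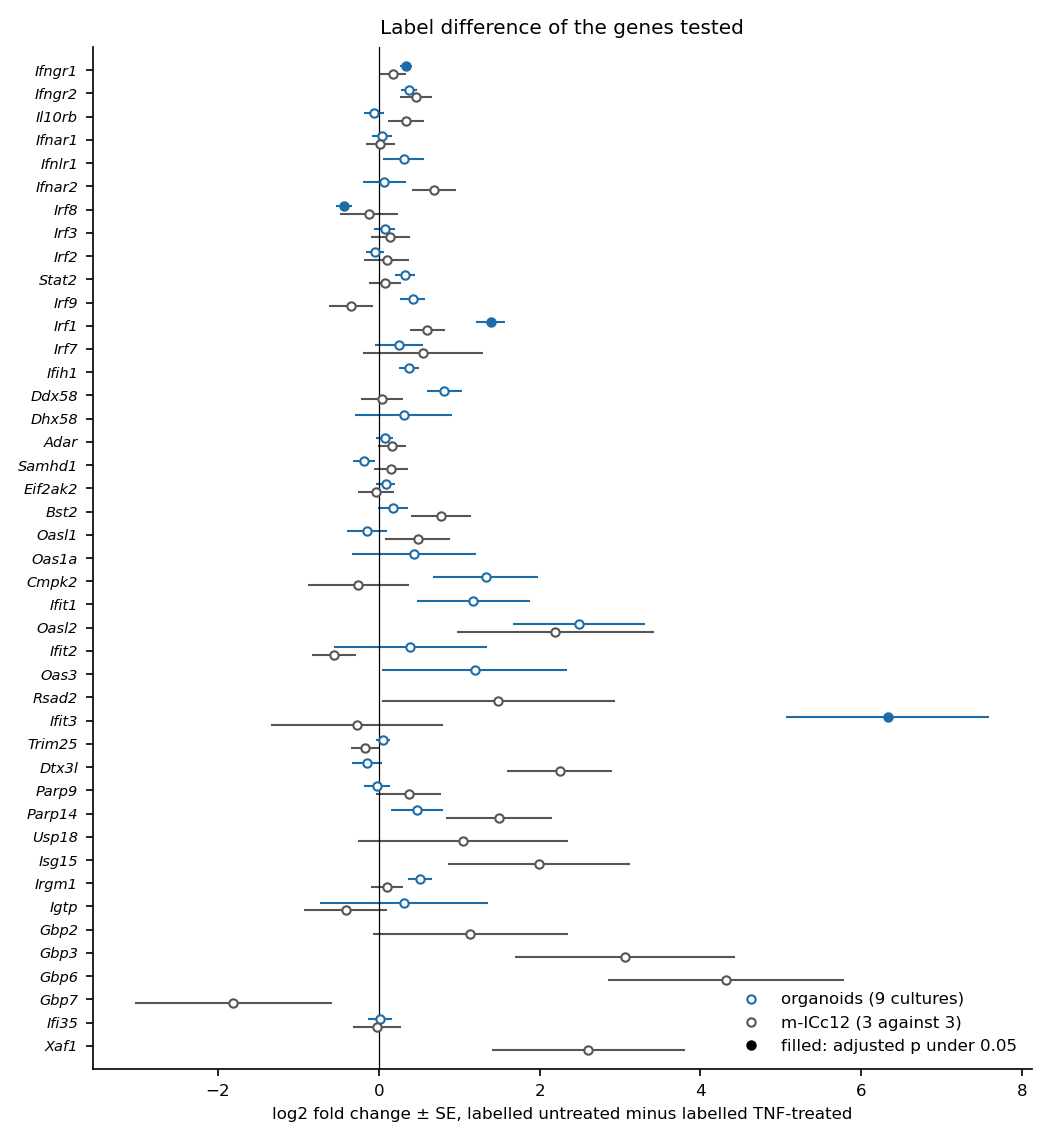
Log2 fold change ± SE (labelled untreated minus labelled TNF-treated, edgeR) of the genes tested in organoids (9 cultures, blue) and m-ICc12 cells (3 against 3 libraries, grey); filled points have an adjusted p under 0.05. The 4 filled points are the organoid values of Irf1, Ifit3, Ifngr1 and Irf8, and no m-ICc12 point is filled.

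In m-ICc12 cells 0 of 37 genes tested were called between the labels by edgeR or DESeq2. The background was 0.0927% higher and 0.0169% lower of 11861 genes. Of the 37, 8 had an unadjusted edgeR p under 0.05, beside 556 of the 11861 genes, and all 8 were higher under the untreated label. These were Irf1, Xaf1, Parp14, Dtx3l, Gbp3, Gbp6, Ifnar2 and Ifngr2. The 2 labels did not overlap for any of them, but they were chosen by that p, so this is no separate support. Nor did the labels overlap for Oasl2, Rsad2 and Il10rb, whose p was above 0.05. No share over all genes is given for such non-overlap with 3 against 3 libraries, so it is not read as a result about these genes. Dtx3l, a ubiquitin ligase that pairs with Parp9, lay at 4.70, 9.67 and 9.36 CPM under the untreated label and at 0.348, 2.09 and 2.21 CPM under the TNF label (2.25 ± 0.66, edgeR adjusted p = 0.610). Parp14, an ADP-ribosyltransferase encoded nearby, lay at 6.92, 14.1 and 8.09 CPM against 0.348, 6.57 and 2.78 CPM (1.49 ± 0.65, edgeR adjusted p = 0.996). Gbp6 had 1.90, 1.94 and 0.384 CPM against 0, 0.0268 and 0.144 CPM (4.32 ± 1.47, edgeR adjusted p = 0.908). Ifnar2 (0.69 ± 0.27) and Ifngr2 (0.46 ± 0.20) lay more than 2 SE above 0. The other receptors tested, Il10rb (0.34 ± 0.22), Ifngr1 (0.18 ± 0.16) and Ifnar1 (0.02 ± 0.18), were within 2 SE of 0. So were Irf7 (0.55 ± 0.74), Irf3 (0.15 ± 0.24), Irf2 (0.10 ± 0.28) and Irf9 (-0.35 ± 0.28). The library M1 labelled TNF-treated, the shallowest, held the lowest value of Dtx3l and Parp14 and was at 0 for Gbp6. Without replicate M2, Bst2 (tetherin, which holds budding virions on the cell) was called (1.38, edgeR adjusted p = 0.0168), against 0.78 with all 3 replicates.

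Whether the label difference itself differed between the culture types was tested as an interaction, in which 1 of 43 genes was called (background 0.0303% higher and 0.129% lower of 13183). This was Dtx3l, whose label difference was larger in m-ICc12 cells than in organoids by 2.33 ± 0.48 on the log2 scale (edgeR adjusted p = 0.0309). In organoids it lay between 16.4 and 36.2 CPM and between 13.4 and 41.1 CPM under the 2 labels, which overlapped, and it was higher under the untreated label in 3 of 9 cultures. The call was lost when any 1 of Z909, Z910, Z912, Z917, Z918, Z919, M2 or M3 was left out (log2 differences of 2.23 to 2.40, edgeR adjusted p = 0.0516 to 0.142). The 2 genes Dtx3l and Parp9 lie head to head on chromosome 16 with 682 shared bases, and Parp9 gave an interaction of 0.40 ± 0.35 (edgeR adjusted p = 0.977).

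The facility of the donor mice left no called difference. Between the GF and the 6 SPF cultures labelled untreated, 0 of 39 genes tested were called by edgeR or DESeq2 (background 0.0244% higher and 0.00812% lower of 12315). Of the 39, 1 had an unadjusted edgeR p under 0.05, beside 491 of the 12315 genes. This was Usp18, at 1.87, 1.53 and 0.577 CPM in GF against 0 to 0.304 CPM in SPF cultures (3.32 ± 1.43, edgeR adjusted p = 1). In the libraries labelled TNF-treated the groups overlapped, at 0 to 0.448 CPM in GF, 0.0400 to 0.884 in SR and 0 to 0.188 in SE. Between SR and SE, 0 of 38 were called by edgeR or DESeq2 (background 0% in both directions of 12219). Of the 38, 3 had an unadjusted edgeR p under 0.05, beside 486 of the 12219 genes. All 3 were lower in SR: Oasl2 (-3.50 ± 1.41), Igtp (-4.88 ± 2.20) and Samhd1 (-0.51 ± 0.22). The sign was below 0 for 30 of the 38, with a median of -0.27 beside -0.002 for all genes. Igtp turned round in the libraries labelled TNF-treated, with 22, 75 and 42 counts in SR against 0, 16 and 6 in SE. Oasl2 and Samhd1 stayed lower in SR on average there. The interaction of label with germ-free origin was called for 0 of 40 genes by edgeR and DESeq2 (background 0% in both directions of 12640). Of the 40, 1, Xaf1, had an unadjusted edgeR p under 0.05, beside 323 of the 12640 genes.

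The spread between organoid cultures differed from gene to gene. Under the untreated label, the highest of the 9 organoid values was 1.38 times the lowest for Ifngr1, 1.41 times for Irf1 and 1.58 times for Irf2. It was 3.27 times for Ifnlr1, 5.22 times for Oasl1 and 5.86 times for Irf7. For 16 genes with an organoid median under 10 CPM and a highest value above 1 CPM under the untreated label, the summed level ranged from 23.6 CPM (Z908) to 62.3 CPM (Z913) under that label and from 16.5 CPM (Z918) to 44.7 CPM (Z913) under the TNF label. Cultures Z911 and Z913, both SE, each held the highest value of 4 of the 16 under the untreated label. In Z913, the highest values were those of Ifit1 (7.73 CPM), Isg15 (1.71 CPM), Rsad2 (viperin, 3.96 CPM) and Parp14 (17.3 CPM), and in Z911 they were those of Ifit3, Oas3 (4.82 CPM), Oasl2 (11.01 CPM) and Ifnar2 (18.8 CPM). With the TNF label Z908 (SR) and Z913 held the highest value of 4 of the 16 each, Z917 (GF) of 3 and Z911 of 2. In that Z911 library 10 of the 16 were at or under 3 counts.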

How the data were processed

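RNA was extracted from organoids, m-ICc12 cells and MEFs, and poly-A libraries were sequenced single end. The raw counts per Ensembl gene were deposited by the authors. Per the submitters' processing notes, reads were trimmed, aligned with STAR (2.5.4b) to GRCm38 (Ensembl release 91) and counted. Whether strand was used in counting is not given in the sources used here.

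Groups came from the labels. Counts were scaled by TMM and tested with edgeR (4.0.16) quasi-likelihood F-tests, keeping genes that reached 10 counts in 50% or more of any group's libraries, with Benjamini-Hochberg adjustment over all genes tested and a threshold of 0.05. Organoid and m-ICc12 labels were compared within culture type. Culture types and facilities were compared among libraries labelled untreated. Values are ± SE unless stated. Levels between genes were compared per kilobase of exon. A gene at or under 3 counts in a library (0.0655 to 0.522 CPM after TMM scaling) was treated as at the floor, and pooled ratios carry exact intervals for counting error only. Only the main edgeR fit of each comparison was also run on simulated data. Alternatives were DESeq2 (1.42.0), all genes with at least 1 count, libraries labelled TNF-treated, both libraries of a culture summed, facility as a covariate, a replicate block and leaving out each culture or replicate.

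The 2 organoid libraries of a number come from the same mouse culture, and their deviations from the group means correlated in 9 of 9 pairs (r from 0.061 to 0.235). Nothing says that the m-ICc12 and MEF replicates came from separate cultures, so p-values there measure the spread between these libraries, which may be technical. Named in full were all receptor and Irf genes, genes called in a label comparison or interaction, genes called with a log2 difference of 3 or more between culture types, and genes at the floor. Others named for an unadjusted p under 0.05 or for an extreme value were chosen after their values were seen. The genes and lists were chosen with earlier results of these data known. Symbols were matched for 22214 of 22524 genes.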

Additional observations from a re-analysis of the deposited data

Results flagged for a closer look

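In the organoids, 9 of 70 groups of 9 libraries, over 35 genes on the log2(CPM + 0.5) scale, held 1 library far from the rest by Dixon's criterion, which chance alone gives in about 1 in 20 groups. Culture Z908 labelled untreated was the lowest in 3 of them, with Dhx58 at 0.0373 CPM (others 1.67 to 5.37), Parp9 at 13.0 CPM (others 19.9 to 29.9) and Il10rb at 31.6 CPM (others 57.6 to 76.2). Culture Z911 stood apart in 3, with Irf1 lowest at 4.15 CPM (others 8.36 to 14.5) and Ifngr1 highest at 203.2 CPM (others 163.2 to 181.1) in its library labelled TNF-treated, and Ifnar2 highest at 18.8 CPM (others 7.68 to 11.7) in its library labelled untreated. Irf9 was lowest in Z918 labelled untreated at 13.7 CPM (others 20.7 to 31.6), and Ifnar1 was lowest in Z919 labelled untreated at 32.9 CPM (others 47.8 to 68.2). Ifit3 was highest in Z917 labelled TNF-treated at 0.0946 CPM (others 0 to 0.0320), a value at the floor of 3 counts.

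The label difference of Dtx3l differed between m-ICc12 cells and organoids by 2.33 on the log2 scale, by a test of the interaction itself.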

How the results depend on the processing

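In organoids the label comparison called 8 genes by DESeq2 (7 higher, 1 lower) against 4 by edgeR. With the culture as a replicate block it called 6, adding Ddx58 and Ifngr2, while calls over all 12104 genes rose from 168 to 397 with the block and to 218 by DESeq2. It called 3 to 5 with 1 culture left out. The m-ICc12 label comparison called 0 genes with the number as a block and 0 to 1 with 1 replicate left out. Whether m-ICc12 libraries of the same number come from the same culture is not given. Their deviations correlated at -0.0008 to 0.0926 (mean 0.041, against -0.020 between different numbers), and 3 pairs are too few to decide it. The interaction of label with culture type called 0 to 1 with 1 library left out and 1 with the block. With the number as a block, m-ICc12 cells against MEFs called 18 of 41 genes against 19. Between culture types the counts of calls stayed within 1.5 times of those reported under every alternative, and the facility comparisons stayed at 0. The directions that turned were those of uncalled label differences and of Parp14. In organoids by label, the values with 1 culture left out ran from -0.112 (without Z911) to 0.005215 (without Z908) for Il10rb, -0.01658 (without Z918) to 0.0841 (without Z919) for Ifnar1, -0.104 (without Z908) to 0.01992 (without Z918) for Irf2 and -0.01475 (without Z912) to 0.1945 (without Z913) for Ifnar2. In m-ICc12 cells by label, they ran from -0.04109 (without M2) to 0.1507 (without M1) for Ifnar1, -0.1727 (without M2) to 0.4042 (without M1) for Irf2, -0.1103 (without M1) to 0.353 (without M2) for Irf3, -0.3122 (without M1) to 1.239 (without M2) for Irf7 and -0.2545 (without M3) to 0.02063 (without M1) for Irf8. Parp14 in m-ICc12 cells against MEFs was -0.030 with the libraries labelled TNF-treated. The cause was not tested. Genes near the floor of 3 counts carry the widest errors.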
